A study of Mus musculus with 9 samples.

Results

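The 10 genes described here act in arginine, nitric oxide and polyamine metabolism, and their RNA was followed across sorted lung neutrophils. They are Arg1, Arg2, Nos2, Ass1, Odc1, Azin1, Amd1, Srm, Sms and Sat1. They were chosen by name, with earlier results of these data known, and matched by gene symbol. All 10 were found among the 18325 genes with values, and all 10 passed the filter on low counts that left 14108 genes for testing.

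L-arginine is a substrate for competing enzymes. Arginase, encoded by Arg1 (cytosolic) and Arg2 (mitochondrial), splits it into ornithine and urea. Inducible nitric oxide synthase, encoded by Nos2, turns it into citrulline and nitric oxide, and argininosuccinate synthase (Ass1) starts the route from citrulline back to arginine. Ornithine decarboxylase (Odc1) makes putrescine from ornithine. Spermidine synthase (Srm) and spermine synthase (Sms) then build spermidine and spermine with aminopropyl groups that S-adenosylmethionine decarboxylase (Amd1) provides. Azin1, the antizyme inhibitor, protects ornithine decarboxylase from antizyme, and Sat1 acetylates spermidine and spermine for export or breakdown. In myeloid cells, arginase and inducible nitric oxide synthase are known as enzymes through which suppressive cells limit T cells.

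The cells came from lungs of female BALB/c mice, with no age in the labels, and were gated as CD45+ cells with high or low surface Ly6g. The macrometastatic (MACRO) Ly6Ghigh and Ly6Glow groups came from mice given 4T1-LM3 cells, a lung-tropic line selected from 4T1 breast cancer cells, in the mammary fat pad. The third group, called normal lung below, was Ly6Ghigh cells from mice for which the labels name no tumor. No group carried a genetic change in the labels. Each group had 3 libraries of bulk RNA-seq. The labels call them biosamples and do not say whether each was 1 mouse or a pool, so p-values measure the spread between these libraries only. The tumor mice are a transplanted-line model, and normal lung Ly6Glow cells were not analysed here.

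Library totals ran from 15267177 to 17841807 estimated counts. Ly6g RNA was not lower in the libraries labelled Ly6Glow (log2 fold change over MACRO Ly6Ghigh 0.08, adjusted p = 0.0577). It stood at 361 to 379.9 CPM (counts scaled by library size) in the MACRO libraries labelled Ly6Ghigh, at 384 to 403 in those labelled Ly6Glow and at 118 to 120.1 in normal lung. The gate was on surface protein, which was not measured here. The normal lung libraries also stood apart in cell type markers. Their 14 neutrophil markers summed to 22871 to 23124 CPM, against 102451 to 104987 in MACRO Ly6Ghigh and 86346 to 88227 in MACRO Ly6Glow. Their 8 epithelial or tumor cell markers summed to 1104 to 1239.7 CPM, against 104 to 112 over the MACRO libraries. Their 8 endothelial and fibroblast markers summed to 1269 to 1365 CPM, against 170.1 to 212. The 13 alveolar macrophage markers summed to 2356 to 2391 CPM in normal lung, 1665 to 1709.7 in MACRO Ly6Ghigh and 419 to 442 in MACRO Ly6Glow. Chil3 gave the largest share of each sum, with means of 963, 1273 and 277 CPM in that order. It was thus higher in MACRO Ly6Ghigh than in normal lung, while the median log2 fold change of the list was -1.95. The 14 macrophage and monocyte markers summed to 1976 to 2028, 1145 to 1179 and 927 to 940 CPM in the same order, and the 6 eosinophil markers to 40.6 to 43.3, 109.8 to 118 and 36.2 to 37.9. Siglecf, also on the alveolar macrophage list, gave most of the first and last eosinophil sums (means of 38.7, 31.4 and 29.5 CPM). The eosinophil list had a median log2 fold change of 5.03 for MACRO Ly6Ghigh over normal lung and -2.84 for Ly6Glow over Ly6Ghigh. Prg2 had means of 0.226, 29.4 and 0.618 CPM and Ear6 of 0.286, 31.9 and 0.411. No listed marker outside the erythroid list was at 0 throughout a group. The part of these cells in the results below was not tested, and in bulk RNA fewer cells of a type and less RNA per cell cannot be told apart.

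**Figure D1:**
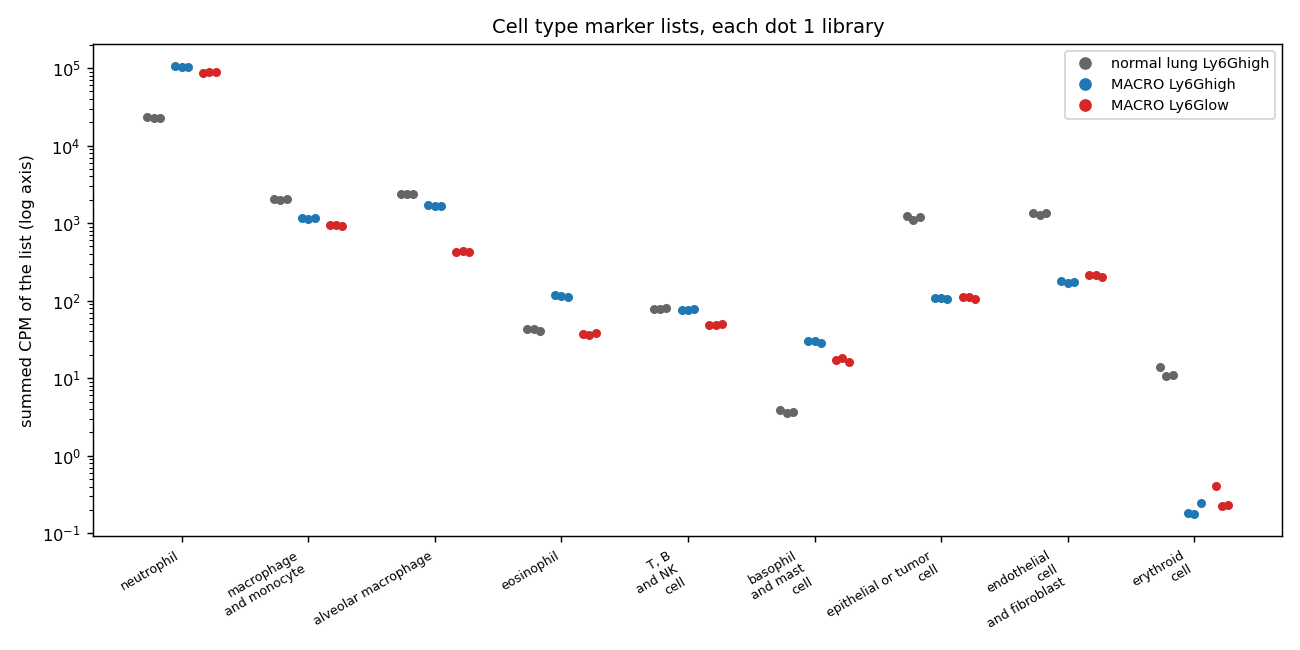
Summed CPM of each cell type marker list on a log axis, with each dot 1 library (3 per group). The normal lung libraries lie lowest on the neutrophil list (22871 to 23124 CPM) and highest on the epithelial, endothelial and erythroid lists, and the alveolar macrophage list falls from normal lung to MACRO Ly6Ghigh to MACRO Ly6Glow.

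Upstream sequence was available for 5 of the 10 genes (Ass1, Amd1, Odc1, Sat1 and Sms, the last with 2 start sites) in RefSeq for GRCm38.p6. Arg1, Arg2, Nos2, Azin1 and Srm had no entry. Myc, whose RNA fell in the comparisons below, is known to bind the E-box CACGTG. The 250 bases before the start held this motif in Ass1, from -36 to -31, and in Sms, from -196 to -191 of 1 start site. It was absent from the windows of Odc1, Amd1, Sat1 and the other Sms start. Sequence beyond the windows, introns included, was not searched. Among 32851 RefSeq promoter windows of the same length, 6.02% held the E-box. These windows are shown because Ass1, Sms and Odc1 were lower in MACRO cells and Sat1 was higher. The E-box is in capitals, and each sequence runs 5′ to 3′ on the strand of its gene. The Ass1 stretch (chr2:31470222-31470251, plus strand) lies among the 63 bases that GENCODE M21 places inside the gene body. The Sms stretch (chrX:157492466-157492495, minus strand) lies upstream of it. The Odc1 stretch (chr12:17544623-17544793, plus strand) and the Sat1 stretch (chrX:155216450-155216699, minus strand) are the upstream bases outside the gene body.
Ass1: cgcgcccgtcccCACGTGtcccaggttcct
Sms: cccagcggggttCACGTGcatttaaagaaa
Odc1: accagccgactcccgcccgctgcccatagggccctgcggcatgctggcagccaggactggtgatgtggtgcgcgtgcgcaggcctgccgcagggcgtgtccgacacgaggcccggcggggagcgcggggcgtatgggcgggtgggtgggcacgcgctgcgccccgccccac
Sat1: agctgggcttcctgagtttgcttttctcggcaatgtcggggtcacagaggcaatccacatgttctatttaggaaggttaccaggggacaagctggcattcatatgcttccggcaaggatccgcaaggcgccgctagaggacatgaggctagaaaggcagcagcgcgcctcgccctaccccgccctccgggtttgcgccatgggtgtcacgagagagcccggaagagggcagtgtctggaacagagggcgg

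The hypoxia core ACGTG was found only inside these E-boxes, on both strands, and 16.6% of windows held it. An NF-kB motif lay from -103 to -94 of the other Sms start, against 3.9% of windows. On both strands, no match was found in the 6 windows for CRE (TGACGTCA, 1.55% of windows), GAS (TTCNNNGAA, 7.02%), AP-1 (TGANTCA, 6.75%) or the TATA-box hexamer TATAAA (12.4%). Other forms of the TATA box were not searched for, and the Amd1 window holds the run TATATAAG. A match is a run of letters, and binding was not measured.

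In the MACRO lung, Nos2 and Arg2 RNA were higher in Ly6Glow than in Ly6Ghigh neutrophils, by 2.53-fold and 1.85-fold. Ass1, Srm and Sms were lower, by 1.5-fold, 2.33-fold and 2.08-fold. The other 5 genes did not pass the call, which asked for an adjusted p of at most 0.05 and a log2 fold change beyond 0.58 in edgeR's quasi-likelihood test. Thus 2 of 10 were called higher and 3 lower, or 5 of 10, where 25.2% of all tested genes were called, 9.29% higher and 15.9% lower. The 10 genes were chosen with earlier results of these data known, so nothing is read from this number. For all 10 genes the ranges of the MACRO groups were separate, as they were for 62.1% of all tested genes. The median log2 difference of the 10 genes was -0.07, and that of all tested genes was -0.04. Without the normal lung libraries 4 of 10 were called, Ass1 being lost.

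Against normal lung, 7 of 10 genes were called in MACRO Ly6Ghigh neutrophils (Nos2, Sat1 and Azin1 higher, Ass1, Odc1, Srm and Sms lower). In that comparison 62.9% of all tested genes were called, 26.3% higher and 36.6% lower, and 85.3% did not overlap. In MACRO Ly6Glow neutrophils 9 of 10 were called against normal lung (the same 3 genes and Arg2 higher, the same 4 and Arg1 lower). There 69.5% of all tested genes were called, 28.7% higher and 40.8% lower, and 86.8% did not overlap. With backgrounds this high, nothing is read from the number of genes called, and their sizes and directions follow. The 14 neutrophil markers had median log2 differences of 2.19 and 1.89 over normal lung in MACRO Ly6Ghigh and Ly6Glow. The 3 comparisons share libraries, so their values are given side by side.

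**Figure D2:**
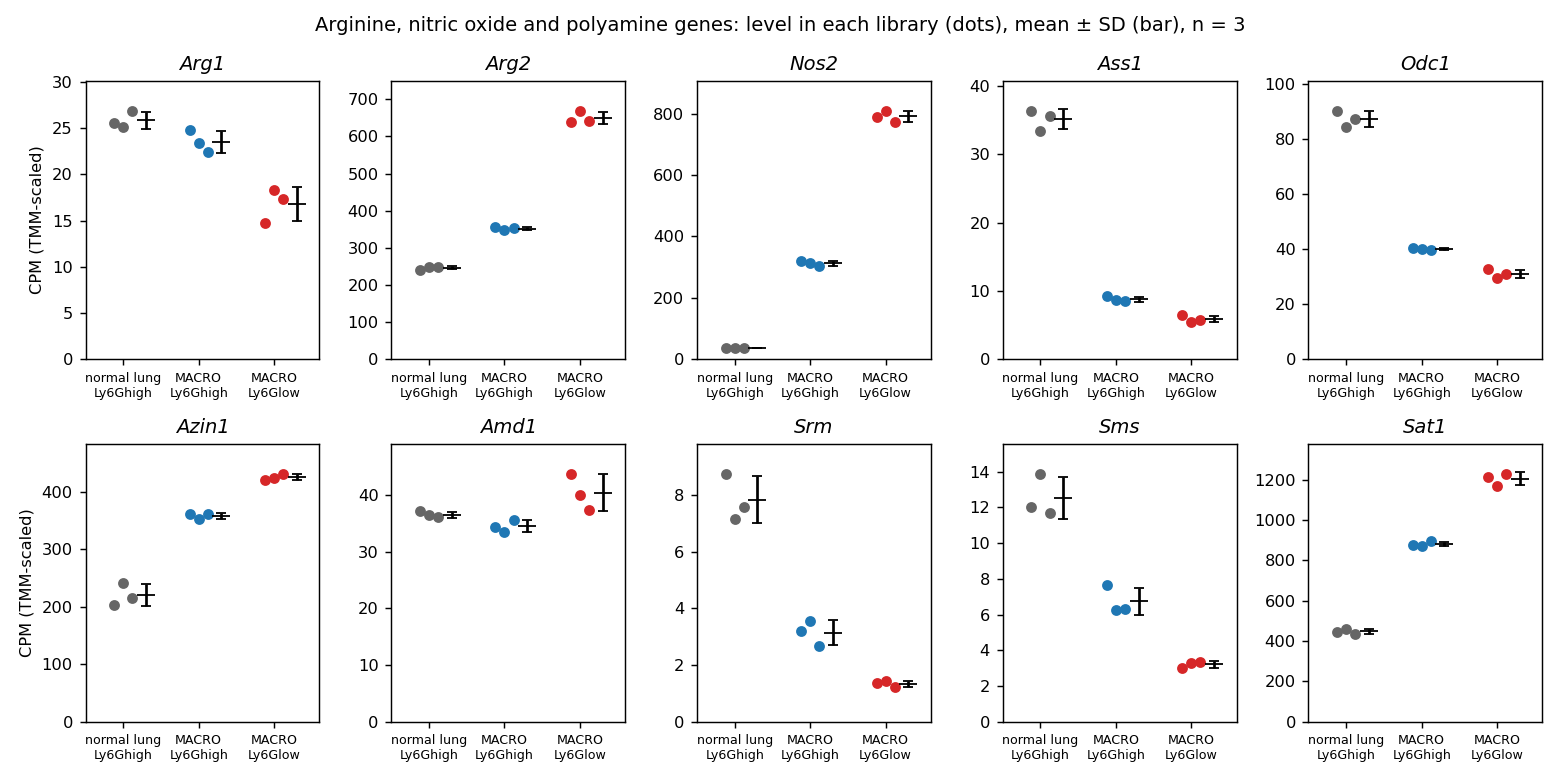
Level of each of the 10 genes in CPM (scaled by trimmed mean of M values, TMM; axes start at 0), with each dot 1 library and the bar beside it the mean ± SD of 3 libraries. Nos2, Arg2, Azin1 and Sat1 rise from normal lung to MACRO Ly6Ghigh to MACRO Ly6Glow, Ass1, Odc1, Srm and Sms fall in that order, and Amd1 stays between 33.5 and 43.8 CPM.

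The gene that differed most was Nos2 (gene ID 18126, chr11:78920787-78960254 of mm10, plus strand). It had 37.1, 35.7 and 36.7 CPM in the normal lung libraries, 321, 313 and 305 in MACRO Ly6Ghigh and 789.8, 809.5 and 774 in MACRO Ly6Glow. Each step was far wider than the spread within a group. On the log2 scale the fold change was 1.34 ± 0.033 (SE, adjusted p = 1.56e-18) for Ly6Glow over Ly6Ghigh, 3.10 ± 0.039 (adjusted p = 2.62e-24) for Ly6Ghigh over normal lung and 4.44 ± 0.039 (adjusted p = 1.81e-26) for Ly6Glow over normal lung. Ordered from the highest fold change, Nos2 stood at place 149, 50 and 10 of 14108 in these comparisons.

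Arg2 (gene ID 11847, chr12:79130777-79156301, plus strand) had 241, 248 and 248 CPM in normal lung, 355, 347 and 352 in MACRO Ly6Ghigh and 640.2, 669 and 641 in MACRO Ly6Glow. The Ly6Glow libraries were highest and no groups overlapped. The fitted log2 difference was 0.89 ± 0.032 (adjusted p = 7.17e-16) for Ly6Glow over Ly6Ghigh and 1.40 ± 0.032 (adjusted p = 2.34e-20) for Ly6Glow over normal lung. For Ly6Ghigh over normal lung it was 0.52 ± 0.032, below the fold threshold, and in FPKM the ranges were close (241 to 246 against 229 to 239.5). Arg2 overlaps Vti1b and an antisense transcript, Gm48780, on the opposite strand. The libraries were made strand-specific, but the sources used here do not say whether counting used the strand.

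Arg1 (gene ID 11846, chr10:24915221-24927484, minus strand), the arginase most used as a mark of suppressive myeloid cells, did not follow Arg2. Its levels were 25.6, 25.1 and 26.9 CPM in normal lung, 24.8, 23.4 and 22.4 in MACRO Ly6Ghigh and 14.7, 18.3 and 17.3 in MACRO Ly6Glow. The MACRO Ly6Glow libraries were the lowest. In the fit the log2 fold change was -0.49 ± 0.080 for Ly6Glow over Ly6Ghigh (adjusted p = 2.03e-05), short of the fold threshold, and -0.14 ± 0.068 for Ly6Ghigh over normal lung (adjusted p = 0.066). For Ly6Glow over normal lung it was -0.62 ± 0.076 (adjusted p = 1.15e-07) and called, but the call was lost without Ly6Glow replicate 1 (-0.53), with DESeq2 (-0.54) and with its size factors (-0.53). On FPKM values, which are per transcript length and were not TMM-scaled, the Ly6Glow over Ly6Ghigh difference of Arg1 was -0.67 and was called. For Ly6Ghigh over normal lung Arg1 was called only on log2(FPKM + 0.1), at -0.60, where the median of all tested genes was -0.51.

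Ass1 (gene ID 11898, chr2:31470207-31520672, plus strand) fell. It had 36.4, 33.5 and 35.6 CPM in normal lung, 9.22, 8.62 and 8.48 in MACRO Ly6Ghigh and 6.41, 5.42 and 5.79 in MACRO Ly6Glow. The gap to normal lung was larger than the gap between the MACRO groups. The log2 fold change was -2.0 ± 0.072 (adjusted p = 8.7e-17) for Ly6Ghigh over normal lung and -2.58 ± 0.083 (adjusted p = 1.02e-17) for Ly6Glow over normal lung. For Ly6Glow over Ly6Ghigh it was -0.58 ± 0.11 (adjusted p = 0.000101), just past the fold threshold. That call was lost without Ly6Ghigh replicate 1 (-0.55), Ly6Glow replicate 2 (-0.53) or Ly6Glow replicate 3 (-0.576). The same call was lost with DESeq2 (-0.522), with its size factors (-0.515) and with upper-quartile scaling (-0.578). Alveolar macrophage markers moved the same way between the MACRO groups, 9 of 13 being called lower with a median log2 difference of -2.20, and their part in the lower Ass1, Srm and Sms was not tested. Of the 14 neutrophil markers, 5 were called lower between these groups (Elane, Camp, Mpo, Ltf and Ngp). Another 4 were called higher (Csf3r, Retnlg, Mmp8 and Cxcr2), and the part of this split was not tested either.

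Odc1 (gene ID 18263, chr12:17544794-17551505, plus strand), the enzyme that commits ornithine to polyamines, was lower in MACRO cells. It had 90.2, 84.3 and 87.3 CPM in normal lung, 40.2, 40.1 and 39.5 in MACRO Ly6Ghigh and 32.6, 29.6 and 30.8 in MACRO Ly6Glow. The main step lay between normal lung and MACRO. Fitted log2 fold changes were -1.13 ± 0.047 (adjusted p = 1.26e-15) for Ly6Ghigh and -1.49 ± 0.051 (adjusted p = 2.9e-17) for Ly6Glow over normal lung. Between the MACRO groups it was -0.36 ± 0.057 (adjusted p = 1.16e-05) and was not called. On log2(FPKM + 0.1) that difference was -0.596 and was called. Odc1 overlaps a small nucleolar RNA, Gm22748, on its own strand.

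Srm (gene ID 20810, chr4:148591503-148594993, plus strand) was low everywhere. It had 8.75, 7.16 and 7.57 CPM in normal lung, 3.2, 3.54 and 2.66 in MACRO Ly6Ghigh and 1.38, 1.43 and 1.22 in MACRO Ly6Glow. The Ly6Glow values rest on only 16 to 18.98 estimated counts per library, and the groups still did not overlap. Its log2 fold change was -1.22 ± 0.21 (adjusted p = 4.04e-05) for Ly6Glow over Ly6Ghigh, -1.32 ± 0.14 (adjusted p = 7.89e-09) for Ly6Ghigh over normal lung and -2.54 ± 0.17 (adjusted p = 7.14e-12) for Ly6Glow over normal lung.

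Sms (gene ID 20603, chrX:157443855-157492287, minus strand), the carrier of the upstream E-box printed above, fell in the same order. Any part of the E-box in this fall was not tested. It had 12, 13.9 and 11.7 CPM in normal lung, 7.63, 6.26 and 6.31 in MACRO Ly6Ghigh and 3, 3.31 and 3.35 in MACRO Ly6Glow, the last on 37 to 44 counts per library. The log2 fold change was -1.06 ± 0.15 (adjusted p = 2.62e-06) for Ly6Glow over Ly6Ghigh, -0.90 ± 0.10 (adjusted p = 5.32e-08) for Ly6Ghigh over normal lung and -1.96 ± 0.13 (adjusted p = 3.69e-12) for Ly6Glow over normal lung. Both aminopropyl transfer enzymes were thus called lower in all 3 comparisons.

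Amd1 (gene ID 11702, chr10:40287458-40302186, minus strand), which supplies their aminopropyl donor, was called in no comparison. It had 37.1, 36.4 and 36.1 CPM in normal lung, 34.4, 33.5 and 35.6 in MACRO Ly6Ghigh and 43.8, 40 and 37.3 in MACRO Ly6Glow. The log2 fold change was 0.23 for Ly6Glow over Ly6Ghigh (95% interval 0.11 to 0.35), -0.08 for Ly6Ghigh over normal lung (-0.20 to 0.03) and 0.14 for Ly6Glow over normal lung (0.03 to 0.26). On FPKM values the first and the last were -0.01 and -0.52, so no direction is given for Amd1. The mouse genome holds a near-identical copy, Amd2, and the split of reads between them is uncertain.

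Azin1 (gene ID 54375, chr15:38487427-38519266, minus strand), which spares ornithine decarboxylase from antizyme, was higher in MACRO cells. It had 204, 242 and 216 CPM in normal lung, 362, 352 and 361 in MACRO Ly6Ghigh and 421, 424 and 432 in MACRO Ly6Glow. Normal lung replicate 2 stood above the other two, yet below every MACRO library. The log2 fold change was 0.70 ± 0.044 (adjusted p = 2.11e-12) for Ly6Ghigh and 0.95 ± 0.044 (adjusted p = 8.32e-15) for Ly6Glow over normal lung, and 0.25 ± 0.044 between the MACRO groups, not called. On FPKM values the differences over normal lung were 0.24 and 0.25 and neither was called. The Ly6Ghigh call was also lost with upper-quartile scaling (0.51) and with at least 10 counts in every library (0.53). In FPKM the MACRO groups overlapped (79.6 to 81.4 and 80.8 to 82.8). Azin1 contains Mir6951 on its own strand and overlaps the antisense Gm49077.

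Sat1 (gene ID 20229, chrX:155213132-155216449, minus strand), the enzyme that acetylates polyamines, was the most abundant of the 10. It had 444, 462 and 437 CPM in normal lung, 878, 873 and 894 in MACRO Ly6Ghigh and 1215, 1170 and 1231 in MACRO Ly6Glow. The groups were well apart. Sat1 had a log2 fold change of 0.98 ± 0.032 (adjusted p = 1.24e-17) for Ly6Ghigh and 1.43 ± 0.032 (adjusted p = 1.65e-20) for Ly6Glow over normal lung, and 0.45 ± 0.031 between the MACRO groups (adjusted p = 4.44e-11), short of the fold threshold. On FPKM values the Ly6Ghigh over normal lung difference was 0.47 and was not called.

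**Figure D3:**
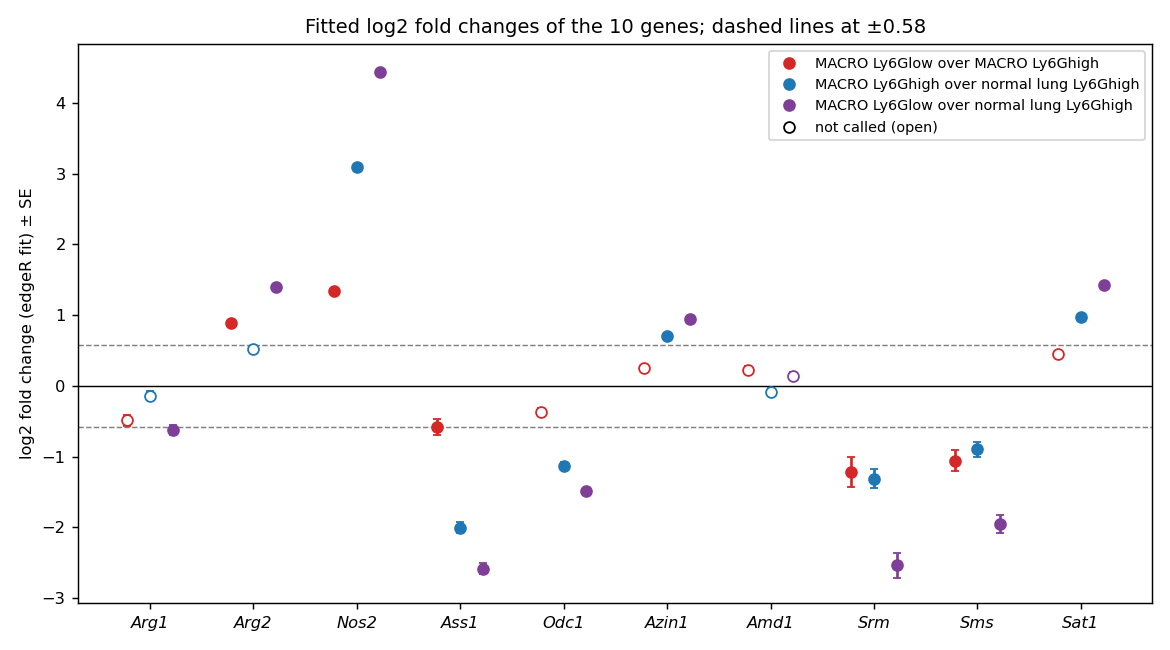
Fitted log2 fold change of each gene in the 3 comparisons, with its SE, filled where called and open where not, and dashed lines at the fold threshold of 0.58 either way. Nos2 reaches 4.44 over normal lung in MACRO Ly6Glow, while Ass1, Srm and Sms lie below the lower dashed line in every comparison.

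Compared per transcript length, in FPKM, the order of the genes differed between groups. In normal lung it ran Sat1 (mean 399), Arg2 (235), Azin1 (68.6), Odc1 (45.7), Ass1 (29.1), Arg1 (23.7), Amd1 (15.2), Nos2 (11.8), Srm (7.98) and Sms (4.58), with no neighbours overlapping. In MACRO Ly6Ghigh it ran Sat1 (553), Arg2 (244), Azin1 (80.8), Nos2 (74.2), Arg1 (15.6), Odc1 (15.1), Amd1 (10.4), Ass1 (5.26), Srm (2.31) and Sms (1.76). There Arg1 and Odc1 overlapped, and Srm and Sms met at 1.97. In MACRO Ly6Glow it ran Sat1 (661), Arg2 (383), Nos2 (158), Azin1 (81.6), Amd1 (10.3), Odc1 (9.99), Arg1 (9.45), Ass1 (2.99), Srm (0.847) and Sms (0.737). There Amd1, Odc1 and Arg1 overlapped, and Srm and Sms met at 0.77. Nos2 thus moved from the eighth place to the fourth and the third.

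Ratios within a library do not depend on the scaling between libraries. Nos2 over Arg1 in FPKM was 0.476 to 0.517 in normal lung, 4.63 to 4.84 in MACRO Ly6Ghigh and 15.6 to 19 in MACRO Ly6Glow. Arg2 over Arg1 was 9.61 to 10.3, 14.9 to 16.4 and 38.2 to 45.5 in the same order, so Arg2 was the major arginase transcript in each library. Nos2 over Arg2 was 0.0485 to 0.0527, 0.295 to 0.31 and 0.409 to 0.418.

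**Figure D4:**
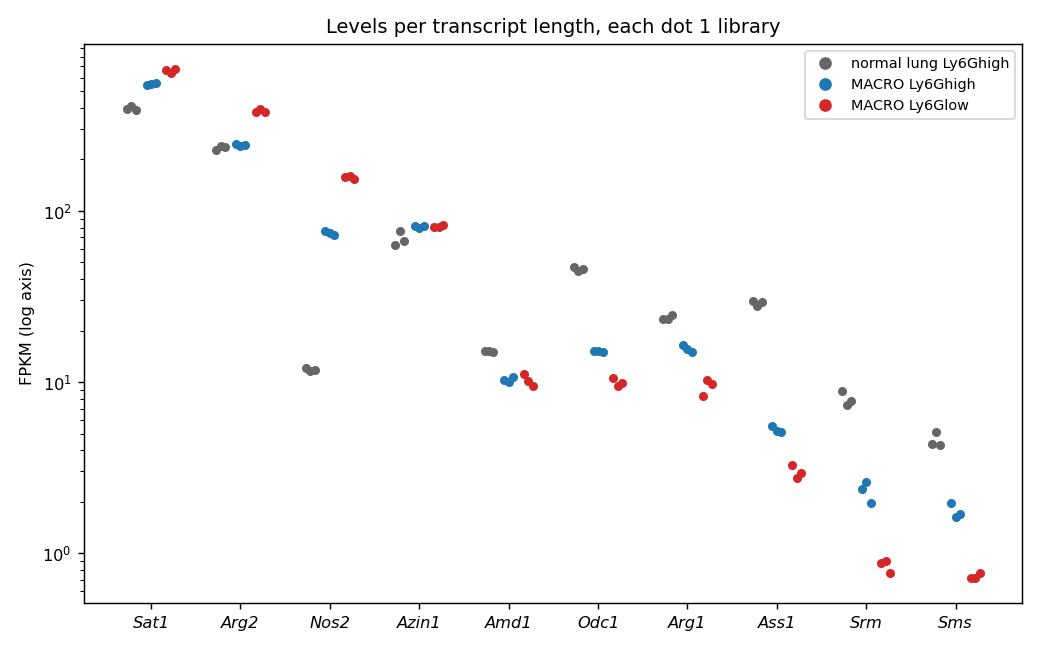
FPKM of the 10 genes on a log axis, ordered by their mean in MACRO Ly6Glow, with each dot 1 library and 3 dots per group. Nos2 lies below Arg1 in normal lung (11.8 against 23.7) and above it in both MACRO groups, and Sat1 is highest in each group.

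The genes whose pattern over the 9 libraries was most like that of Nos2, by the root mean square difference of gene-centred log2 CPM among 8460 genes, were Egln3 (0.135), Casp6 (0.282) and Cxcr1 (0.354). Egln3, a prolyl hydroxylase, had group means of 9.55, 93.8 and 196 CPM in normal lung, MACRO Ly6Ghigh and MACRO Ly6Glow. For Arg2 they were Ier3 (0.032), Snx18 (0.04) and Preb (0.045). For Arg1 they were Gorasp2 (0.069), Ran (0.07) and Srp68 (0.073).

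The wider pathways were read from 7 lists with 78 further genes, of which 71 were tested. Agmat, Cps1, Otc, Nos1, Slc3a1 and Ahcy were too low to test, with at most 15 counts in a library, and Pycr3 was not listed. Between the MACRO groups 11 were called higher and 21 lower in Ly6Glow, or 45.1% against 25.2% of all tested genes, with a median log2 difference of -0.04. Over normal lung 11 were higher and 36 lower in MACRO Ly6Ghigh, and 14 higher and 39 lower in MACRO Ly6Glow. These are 66.2% and 74.6% of the 71, near the 62.9% and 69.5% of all tested genes. Between the MACRO groups 9.29% of all tested genes were called higher and 15.9% lower. The share of the 71 was larger there, but the lists were chosen with earlier results of these data known. Nothing is therefore read from the numbers called here or in the lists below. The medians were -0.60 and -0.93, against -0.09 and -0.16 for all tested genes.

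Of 14 tested genes of arginine entry, recycling and use, 7 were called lower and none higher in MACRO Ly6Glow against MACRO Ly6Ghigh. Slc7a2, a cationic amino acid transporter that brings arginine into the cell, fell furthest. Its range was 251 to 268 CPM in normal lung, 56.6 to 60.1 in MACRO Ly6Ghigh and 8.43 to 8.99 in MACRO Ly6Glow, with log2 fold changes of -2.76 ± 0.068 between the MACRO groups (adjusted p = 1.66e-18) and -2.14 and -4.91 over normal lung. Slc7a1, its constitutive relative, fell from 28.7 to 10.9 to 5.35 CPM on average, by 1.03 on the log2 scale between the MACRO groups. Gamt, of creatine synthesis, was also called lower there (-1.07), at under 1 CPM in every MACRO library, and lost that call without Ly6Ghigh replicate 1 (-0.99) or Ly6Glow replicate 3 (-0.84) and with DESeq2 (-1.03).

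The same list over normal lung had 2 higher and 9 lower in MACRO Ly6Ghigh and 1 higher and 9 lower in MACRO Ly6Glow. Asl, which releases arginine from argininosuccinate and so follows Ass1, went the other way from Ass1 in MACRO Ly6Ghigh (0.77 ± 0.080, called). In MACRO Ly6Glow it was 0.25 over normal lung and -0.52 over Ly6Ghigh, neither called. Slc7a7, part of an arginine exporter, was higher in MACRO Ly6Ghigh (0.81), Oat, which converts ornithine toward glutamate and proline, was higher in MACRO Ly6Glow (0.84), and Ddah1, which clears methylated arginine, was lower in MACRO Ly6Ghigh (-2.53). In the same comparisons the alveolar macrophage markers had medians of -1.95 and -4.64. Between the MACRO groups their median was -2.20, with 9 of 13 called lower. Their part in the lower Slc7a2 was not tested in any of the 3 comparisons.

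**Figure D5:**
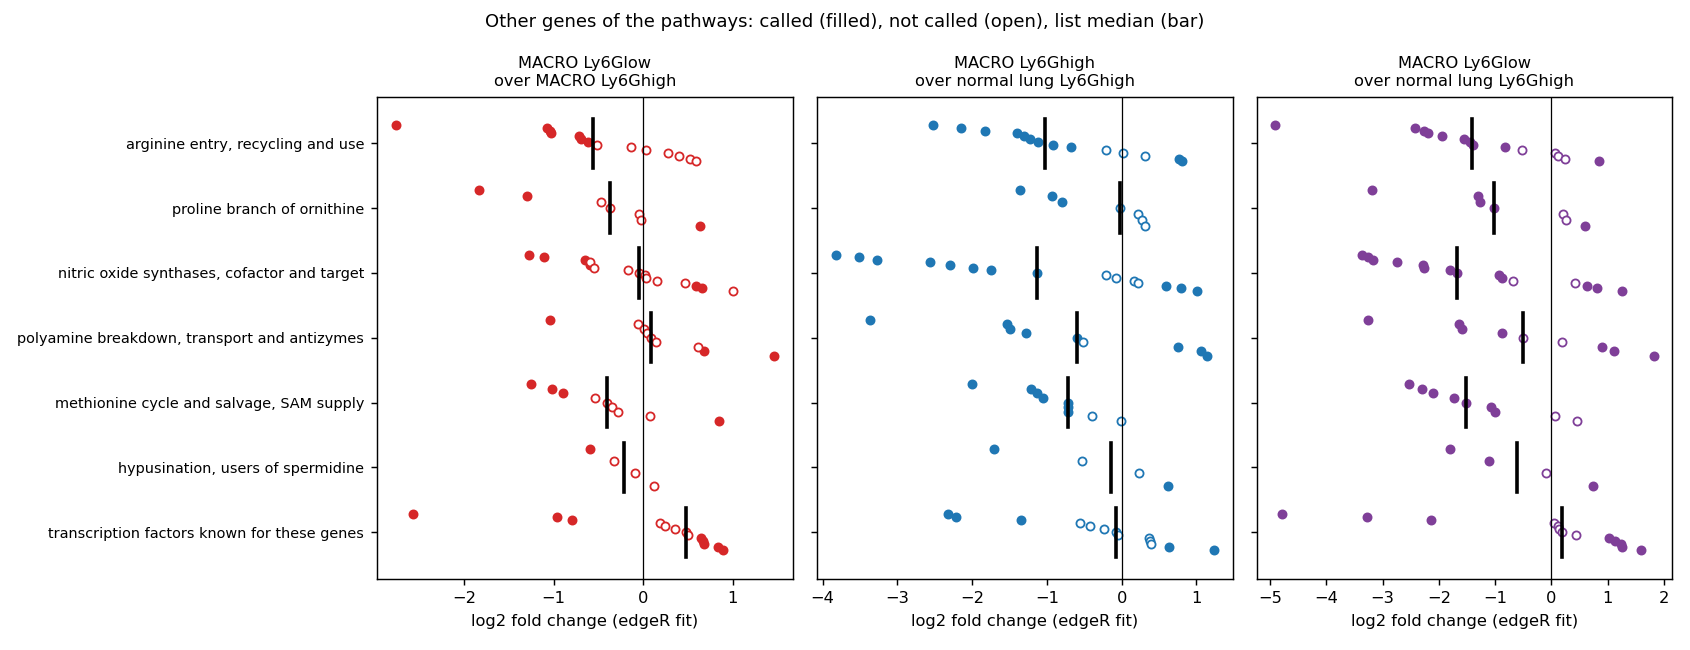
Fitted log2 fold changes of the 71 further pathway genes by list, filled where called, open where not, with a bar at the median of each list. Between the MACRO groups the list medians lie from -0.57 (arginine entry) to 0.48 (transcription factors).

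Among 7 tested genes of the proline branch, Prodh, which degrades proline, fell by 1.83 on the log2 scale between the MACRO groups, where the list had 1 higher and 2 lower. Prodh ranged from 3.55 to 4.74 CPM in normal lung, 1.42 to 1.78 in MACRO Ly6Ghigh and 0.381 to 0.527 in MACRO Ly6Glow. Its Ly6Glow folds thus rest on few counts. Over normal lung no gene of the branch was higher and 3 were lower in MACRO Ly6Ghigh, among them Prodh (-1.36) and the ornithine carrier Slc25a15 (-0.94). In MACRO Ly6Glow 1 was higher and 4 were lower, among them Prodh (-3.20) and Slc25a15 (-1.31).

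Of 15 tested genes around nitric oxide, 2 were called higher and 4 lower between the MACRO groups. Gch1, the rate-limiting enzyme for tetrahydrobiopterin, the cofactor that nitric oxide synthases need, had means of 50.1, 58.6 and 88.4 CPM in normal lung, MACRO Ly6Ghigh and MACRO Ly6Glow. It was called higher in MACRO Ly6Glow over Ly6Ghigh (0.59 ± 0.049, adjusted p = 7.96e-10) and over normal lung (0.82). The first call was lost without Ly6Ghigh replicate 1 or Ly6Glow replicate 2 (0.57 each) and with no filter on low counts (0.575), and on FPKM values both were lost (0.34 and 0.11). Its Ly6Ghigh over normal lung value was 0.22, not called and negative on FPKM values. Pts, the next enzyme of that route, was higher over normal lung in MACRO Ly6Ghigh (0.80) and Ly6Glow (1.26).

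Qdpr, which regenerates the cofactor, was called lower in all 3 comparisons. It had log2 fold changes of -1.28 between the MACRO groups and -3.26 in MACRO Ly6Glow over normal lung. Over normal lung 3 genes of this list were higher and 8 lower in MACRO Ly6Ghigh, and 3 higher and 10 lower in MACRO Ly6Glow. Nos1ap, an adaptor of the neuronal synthase, was higher in MACRO Ly6Ghigh (1.01). Both subunits of soluble guanylate cyclase, the receptor for nitric oxide, were lower in MACRO Ly6Ghigh (Gucy1a1 -3.52, Gucy1b1 -3.83), and Gucy1a1 was -3.36 in MACRO Ly6Glow. Endothelial and fibroblast markers fell in the same comparisons, all 8 being called with medians of -3.25 and -3.06, and their part in the fall was not tested. Between the MACRO groups Gucy1b1 was called higher in Ly6Glow (0.65) at 1.48 to 3.25 CPM, a call lost without Ly6Ghigh replicate 2 (0.52) or Ly6Glow replicate 1 (0.55). The summed endothelial and fibroblast markers moved the same way, from 170.1 to 178 CPM in Ly6Ghigh to 200.2 to 212 in Ly6Glow. None of the 8 passed the fold threshold, Pecam1 (0.41) and Vwf (0.36) being the highest, and their part in the Gucy1b1 value was not tested.

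On polyamine breakdown and control, Smox, which oxidizes spermine back to spermidine, was the largest gain of the 71 tested genes between the MACRO groups. Its range was 701 to 798 CPM in normal lung, 311 to 319 in MACRO Ly6Ghigh and 839 to 892 in MACRO Ly6Glow. The log2 fold change was 1.46 ± 0.043 (adjusted p = 3.12e-17) between the MACRO groups, -1.27 for Ly6Ghigh over normal lung and 0.18, not called, for Ly6Glow over normal lung. Paox, which oxidizes acetylated polyamines, was lower between the MACRO groups (-1.04) and in Ly6Glow over normal lung (-1.64), at 0.893 to 3.56 CPM.

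The antizymes, which bind ornithine decarboxylase and send it for degradation, were higher over normal lung. Oaz1 had means of 169, 355 and 367 CPM in normal lung, MACRO Ly6Ghigh and MACRO Ly6Glow. Its log2 fold changes over normal lung were 1.07 and 1.11, both called, and 0.05 between the MACRO groups (adjusted p = 0.412). Oaz2 had means of 81.3, 179 and 287 CPM and was called higher in all 3 comparisons (0.68 between the MACRO groups, 1.14 and 1.82 over normal lung). Of the 9 tested genes of this list, 2 were higher and 1 lower between the MACRO groups, 3 and 5 in MACRO Ly6Ghigh over normal lung, and 3 and 4 in MACRO Ly6Glow over normal lung. Cav1, better known as an endothelial and fibroblast gene, was lower over normal lung (-3.36 and -3.27). Sat2 was called lower in MACRO Ly6Ghigh, a call lost without Ly6Ghigh replicate 1 and with DESeq2, but at 0.0615 to 0.495 CPM it is too low for a fold to be given.

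Of 9 tested genes of the methionine cycle and salvage, which supply S-adenosylmethionine, 1 was higher and 3 were lower between the MACRO groups. Over normal lung 7 were lower and none higher in each MACRO group, where 36.6% and 40.8% of all tested genes were called lower. Mtap, which recovers the by-product of spermidine and spermine synthesis, had log2 fold changes of -1.25 between the MACRO groups and -2.31 in MACRO Ly6Glow over normal lung. Mri1, a later step of that salvage, was -1.02 between the MACRO groups and was not called without Ly6Glow replicate 3 (-0.79) or with DESeq2 (-0.96). It had only 0.457 to 0.828 CPM in MACRO Ly6Glow. Mat2a, the catalytic subunit that makes S-adenosylmethionine, was -0.71 and -0.99 over normal lung, both called, and -0.28 between the MACRO groups, not called. Its regulatory subunit Mat2b was higher in Ly6Glow than in Ly6Ghigh (0.85). Enoph1 (-1.21) and Mtrr (-2.01) were the largest falls in MACRO Ly6Ghigh, and Mtrr was -2.54 in MACRO Ly6Glow, at 0.376 to 1.14 CPM there.

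Of 4 genes of hypusination, the use of spermidine to modify eIF5A, Dohh was called lower between the MACRO groups (-0.59) and none was higher. That call was lost without Ly6Ghigh replicate 1 (-0.49), Ly6Glow replicate 1 (-0.51) or Ly6Glow replicate 3 (-0.45), and with DESeq2 (-0.53) or its size factors (-0.52). Eif5a, the protein that is modified, had log2 fold changes of 0.62 and 0.75 over normal lung, both called, and 0.12, not called, between the MACRO groups. On FPKM values the differences over normal lung were 0.17 and 0.05, and with upper-quartile scaling 0.43 and 0.56, none of them called. Its paralog Eif5a2 was lower over normal lung (-1.70 and -1.80), and Dohh was lower in MACRO Ly6Glow (-1.11). Over normal lung the list had 1 higher and 1 lower in MACRO Ly6Ghigh and 1 higher and 2 lower in MACRO Ly6Glow.

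Of 13 transcription factors known for regulating these genes, 5 were higher and 3 lower between the MACRO groups. Cebpb, an activator of arginase genes, rose to a mean of 2247 CPM in MACRO Ly6Glow from 1210.4 in MACRO Ly6Ghigh (0.89), and Hif1a, which acts on Nos2 in hypoxia, rose to 863 from 482 (0.84). Myc, an activator of Odc1, was called lower in all 3 comparisons, at 13.5 to 14.4 CPM in normal lung, 4.78 to 6.21 in MACRO Ly6Ghigh and 2.92 to 3.24 in MACRO Ly6Glow (-0.79, -1.35 and -2.14). Its partner Max was higher over normal lung (1.23 and 1.59).

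Irf8 was called lower throughout (-0.96 between the MACRO groups, -2.33 and -3.28 over normal lung), as was Pparg (-2.57, -2.22 and -4.79). Pparg is a defining factor of alveolar macrophages, whose markers fell in the same comparisons. Stat6 was higher in MACRO Ly6Ghigh over normal lung (0.64), and Cebpb was higher in MACRO Ly6Glow (1.26). Over normal lung the list had 2 higher and 3 lower in MACRO Ly6Ghigh, and 5 higher and 3 lower in MACRO Ly6Glow.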

How the data were processed

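Polyadenylated RNA of 9 libraries (3 groups of 3, grouped by sample title) was sequenced as paired ends. The deposited tables hold estimated counts per gene, of which 37.9% were whole numbers, and FPKM values, which the authors normalized per transcript length and library. The build per the labels was mm10. The aligner and counter are not given in the sources used here. Of 22064 listed genes, 3739 were blank in every library.

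Counts were rounded and fitted in edgeR 4.0.16 (R 4.3.3) with TMM scaling, its filter on low counts, the quasi-likelihood test over all 9 libraries and Benjamini-Hochberg adjustment over 14108 genes. Calls required an adjusted p no larger than 0.05 together with a log2 fold change beyond 0.58 in either direction. Levels are TMM-scaled CPM, with TMM factors of 0.803 to 1.32. Alternatives used DESeq2 1.42.0, limma 3.58.1 on log2(FPKM + 1) or log2(FPKM + 0.1), other scalings, filters and thresholds, and left out each library in turn. The scripts were tested on simulated data. Low counts limit precision, above all for Srm and Sms. Between replicates, chi-square per degree of freedom was 1.39 to 5.33 over genes, a spread above counting noise. This does not tell separate mice from separate preparations of 1 pool.

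The members and gene lists were chosen with earlier results of these data known. Named genes were every member, of each list the 2 largest called gains and losses per comparison, and Slc7a2, Slc7a1, Asl, Gch1, Oaz1, Smox, Mat2a, Eif5a and Myc. For Arg1, Arg2 and Nos2, the 3 most alike genes among those with at least 10 CPM in a group were also named, and Ly6g was named as the gene of the sort. Gene positions are from GENCODE M21. Some genes that this rule names are not reported here, though they remain in the counts of their lists.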

Additional observations from a re-analysis of the deposited data

How the results depend on the processing

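Each count was recomputed under 19 alternatives. The call threshold mattered most: with no fold threshold 10 members and 49 pathway genes were called between the MACRO groups, and with a log2 threshold of 1 these were 3 and 13, and 4 members in MACRO Ly6Ghigh over normal lung. The deposited FPKM scale shifted the median of all genes to -0.13, -0.32 and -0.49 in Ly6Glow over Ly6Ghigh, Ly6Ghigh over normal lung and Ly6Glow over normal lung, and called 20 pathway genes between the MACRO groups at a pseudocount of 1, with or without a filter at an FPKM of 1. Upper-quartile scaling shifted the medians to -0.04, -0.28 and -0.35. Signs turned as follows on FPKM values (pseudocount 1, then 0.1; the filter repeated the first). Between the MACRO groups Amd1 was -0.009 and -0.01, Oaz1 -0.191 under both and Eif5a -0.116 under both. In Ly6Ghigh over normal lung Gch1 was -0.23 and -0.239. In Ly6Glow over normal lung Amd1 was -0.518 and -0.555, Asl -0.43 and -0.473, and Smox -0.506 and -0.507. With upper-quartile scaling Amd1 was -0.048 and Smox -0.005, and with at least 10 counts in every library Amd1 was -0.041. Other calls were lost on FPKM values: between the MACRO groups Gch1 (0.342), Gucy1b1 (0.158) and Oaz2 (0.44), in Ly6Ghigh over normal lung Slc7a7 (0.323), Asl (0.25), Pts (0.359), Nos1ap (0.394) and Stat6 (0.171), and in Ly6Glow over normal lung Oat (0.137), Pts (0.526), Oaz1 (0.412) and Cebpb (0.56). Gamt, Prodh, Paox and Mri1 lost theirs between the MACRO groups with a pseudocount of 1 and kept them with 0.1. The cause of these changes was not tested beyond the shifts given. Leaving out 1 library in turn gave 4 to 5, 7 and 8 to 9 members, and 28 to 34, 46 to 47 and 51 to 53 pathway genes, in the 3 comparisons in that order. Same-numbered libraries correlated at -0.0683 to 0.0766 in their deviations from group means. With 3 libraries per group, such values cannot tell whether same-numbered libraries came from the same mice, which the labels do not say. With the number as a replicate block 5, 7 and 9 members and 32, 47 and 53 pathway genes were called, as without it. Depth limits Srm and Sms among the members, and Gamt, Sat2, Prodh, Paox, Mri1 and Mtrr among other genes that rest on few counts.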

Other observations

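Other ratios of polyamine genes within a library, in FPKM, are given as values. Sat1 over Odc1, acetylation against synthesis, was 8.41 to 9.25 in normal lung, 35.9 to 37.4 in MACRO Ly6Ghigh and 63.5 to 67.7 in MACRO Ly6Glow. Sat1 over Srm was 44.5 to 56, 212 to 285 and 714 to 874 in the same order. Oaz1 over Odc1, antizyme against its target, was 4.45 to 5, 21.4 to 22 and 27.5 to 31.1. Azin1 over Odc1, antizyme inhibitor against the same target, was 1.35 to 1.7, 5.23 to 5.43 and 7.67 to 8.52. The groups did not overlap in any of these 4 ratios, and no share over other gene pairs was computed. Of single tested genes, 62.1% did not overlap between the MACRO groups. Over normal lung 85.3% did not in MACRO Ly6Ghigh and 86.8% in MACRO Ly6Glow, so nothing is read from the separation. RNA ratios give no enzyme activity, and normal lung libraries held more RNA of other lung cells, whose part in these ratios was not tested.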
